A study of Mus musculus with 2 samples.

Results

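The muscle-type microRNAs (miRNAs) mmu-miR-1, mmu-miR-206, mmu-miR-133a, mmu-miR-133b and mmu-miR-499 were followed in small RNA sequencing of whole brain from young and old mice. They were 5 of 552 mature sequences with at least 1 read in a set made of the RefSeq mouse table and the members, here called the listed miRNAs. That table is not complete, and miR-124-3p, miR-143-3p, miR-486a-5p and miR-122-5p, for instance, are outside the set. Their sequences were chosen by their read counts: for each name, the tag (a distinct sequence with its number of reads) was sought whose counts in the young and the old library equalled those the study tabulated for that miRNA. Single tags held the counts of miR-1, miR-206 and miR-499. The counts of miR-133a were held by 23010 tags and those of miR-133b by 7541, so other information decided: the RefSeq mature sequence for miR-133b and, for miR-133a, the only one of its tags with the first 18 bases and the length of miR-133b. The counts and their ratios between the ages are therefore a description, and no test was made on them.

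One library came from young animals (5 months) and one from old animals (24 to 25 months). Each combined the cDNA libraries of 2 adult male C57BL/6J mice, an inbred strain, with no other treatment or allele named. There was 1 library per age, so values per animal were not measured, animal and age cannot be told apart, and every interval given is a 95% exact interval for counting error only. The reads came from PCR without molecular identifiers and were not independent molecules.

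The miR-1 and miR-206 family shares a seed, the bases from the second to the eighth that pair with target messages, and is known from heart and skeletal muscle, where it acts in muscle differentiation. miR-1 and miR-133 are made from shared transcripts in striated muscle, as are miR-206 and miR-133b, and miR-206 is known for its role at the neuromuscular junction. miR-499 is encoded in an intron of the myosin gene Myh7b and, with miR-208a and miR-208b, belongs to a group of miRNAs hosted by myosin genes.

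The mature sequences are shown because the seed groups the members and because the end positions described below refer to them. The seed stands in capitals, and sequences and positions were taken from RefSeq on GRCm38.p6, with 3 of the 5 members matched by name.
mmu-miR-206-3p: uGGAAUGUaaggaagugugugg
mmu-miR-133b-3p: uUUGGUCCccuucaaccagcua
mmu-miR-499-5p: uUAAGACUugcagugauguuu
miR-206 lay at chr1:20679055-20679076, miR-133b at chr1:20682834-20682855 and miR-499 at chr2:155622893-155622913, all on the plus strand. miR-1 had the seed of miR-206, GGAAUGU, and miR-133a had the seed of miR-133b, UUGGUCC. The seed of miR-1 and miR-206 was also held by miR-6349 and miR-6382, neither of which had a read in either library. The seed of miR-499 was held by no other miRNA of the table, although its bases 2 to 7 were shared with the cardiac miRNAs miR-208a and miR-208b, shown for comparison.
mmu-miR-208a-3p: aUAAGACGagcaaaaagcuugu
mmu-miR-208b-3p: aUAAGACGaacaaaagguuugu

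The libraries held 4523267 young and 6658732 old reads. Reads with an undetermined base made up 4.57% of the young and 1.07% of the old library. Of 256 listed miRNAs with at least 10 reads in a library, 5 (1.95%) had a level at least 2-fold higher in the old library and 79 (30.9%) a level at least 2-fold lower, with reads per 1000000 reads of the library (RPM) as the level. None of the 3 members that reached 10 reads (miR-1, miR-206 and miR-499) was among either group at this depth. The median log2 ratio of the 256 miRNAs, old over young, was -0.62, and 18.75% of them were higher in the old library. With 24 miRNAs added that are not listed but whose tabulated counts a single tag held, 5 of 280 were at least 2-fold higher and 91 (32.5%) at least 2-fold lower.

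miR-1 was the most abundant member in both libraries and the only one whose interval lay above equal levels at this depth. Its exact mature sequence was read 21027 times in the young and 51499 times in the old library, which was 4649 and 7734 RPM. The level in the old library was 1.66-fold that in the young, a log2 ratio of 0.73 with an interval from 0.71 to 0.76. Counting all tags that shared its first 18 nucleotides (nt) gave 28147 reads in the young and 64402 in the old library, and the log2 ratio was then 0.64 (0.62 to 0.66). Among the listed miRNAs, miR-1 ranked 10th of 488 in the young library, between let-7b-5p (25754 reads) and miR-376a-3p (19869 reads). In the old library it ranked 7th of 462, between let-7i-5p (55508 reads) and miR-128-3p (48015 reads). With the 24 others added its rank was 12 in the young and 7 in the old library. Its read counts differed from those of each neighbour by more than counting error.

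miR-206, which shares the miR-1 seed, had levels per total reads that counting error did not separate by exact tag or by shared start. It was read 3425 times in the young and 5054 times in the old library, at 757 and 759 RPM. The log2 ratio was 0.00 with an interval from -0.06 to 0.07, and with all tags of the same start (5568 and 7960 reads) it was -0.04 (-0.09 to 0.01). Among the listed miRNAs it stood 36th in the young library, between miR-7a-5p (3561 reads) and miR-181b-5p (3130 reads), and 27th in the old, between miR-21a-5p (5248 reads) and miR-101a-3p (5025 reads). Counting error separated miR-206 from miR-181b-5p in the young library but not from miR-7a-5p, and from neither neighbour in the old. With the 24 others added the ranks were 42 and 32.

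Within a library the members can be set against each other without a choice of depth. miR-1 was read 6.14 times (5.92 to 6.37) as often as miR-206 in the young library and 10.2 times (9.90 to 10.5) as often in the old. By shared start the ratios were 5.06 and 8.09. The intervals of the libraries did not overlap by either count, which separates these libraries and not the ages. Reads of different miRNAs also carry the ligation and amplification preferences of each sequence, so a ratio of reads is not a ratio of molecules.

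miR-499 was detected at a low level in both libraries. It was read 129 times in the young and 172 times in the old library, at 28.5 and 25.8 RPM, with a log2 ratio of -0.14 (-0.48 to 0.20). By shared start it had 177 and 269 reads, for a log2 ratio of 0.05 (-0.23 to 0.33), so the sign differed between the counts and neither interval excluded equal levels. Among the listed miRNAs, miR-499 ranked 116th in the young library, level with miR-17-3p at 129 reads, and 105th in the old, between miR-503-5p (175 reads) and miR-186-5p (165 reads). These neighbours could not be told from it at this depth, and with the 24 others added its ranks were 135 and 121. The ratio of miR-1 to miR-499 was 163 (137 to 195) in the young and 299 (258 to 350) in the old library.

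miR-133a and miR-133b were close to absent. The exact miR-133a sequence had 0 young and 2 old reads, and miR-133b had 1 young and 2 old reads. All 5 tags with their shared first 18 nt held 9 reads in the young and 6 in the old library, 1.99 and 0.901 RPM. By listed start, miR-1 was thus read 3127 times (1647 to 6840) as often as miR-133 in the young and 10734 times (4931 to 29250) in the old library. This was so although miR-1 and miR-133a lie next to each other in the genome. With starts shifted by 1 nt also counted, miR-133 had 21 young and 12 old reads and miR-1 28179 and 64459, so the ratios were then lower.

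**Figure D1:**
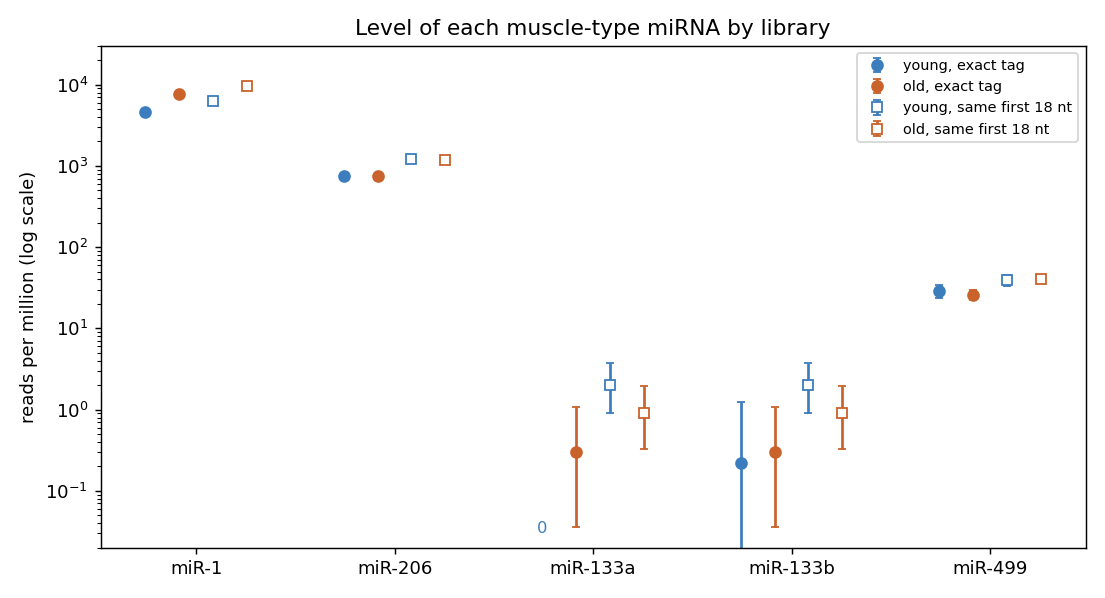
Level of each member in RPM (log axis) in the young (blue) and old (orange) library, by exact tag (filled circles) and by all tags with the same first 18 nt (open squares), with bars for the 95% exact counting interval. miR-1 stood near 4649 and 7734 RPM, miR-206 at 757 and 759, miR-499 under 50 and the miR-133 sequences at or under 2. The open squares of miR-133a and miR-133b are the same reads.

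The few miR-133 reads were split between the listed 5′ end and a start 1 nt inside it. Tags 1 nt shorter at the 5′ end had 12 young and 6 old reads, 54.5% (36.4% to 71.9%) of the 33 reads with the listed or the shifted start. The most frequent tag was miR-133a without its first base, 22 nt long, with 9 young and 5 old reads. This shift moves the seed to UGGUCCC, which no mature sequence in the table held. By their 3′ bases, 18 of the 33 reads (11 young, 7 old) matched the genome as miR-133a only, 3 (1 young, 2 old) as miR-133b only and 9 (6 young, 3 old) as either, and the other 3, all young, matched neither. The other members kept their 5′ end: the listed start held 99.9% of miR-1 reads in each library, 99.3% of miR-206 reads in each library, and 98.9% of young and 100% of old miR-499 reads.

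The log2 ratios depended on the depth they were set against, since most listed miRNAs were lower in the old library. With TMM factors from edgeR the median log2 ratio of the 256 miRNAs moved from -0.62 to 0.09 and with DESeq2 size factors to -0.02. Relative to that median miR-1 stood higher by 1.36, miR-206 by 0.63 and miR-499 by 0.48 at each depth. miR-1 was higher in the old library at each depth tried, from 0.47 with the depth of known-miRNA reads (those of the listed set) to 1.45 with TMM factors, and it passed 2-fold with TMM factors, with DESeq2 size factors (1.34) and with a depth that left out let-7 and miR-98 (1.10). miR-206 ranged from -0.26 with known-miRNA reads to 0.72 with TMM factors and miR-499 from -0.40 to 0.57, so no direction is given for either.

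**Figure D2:**
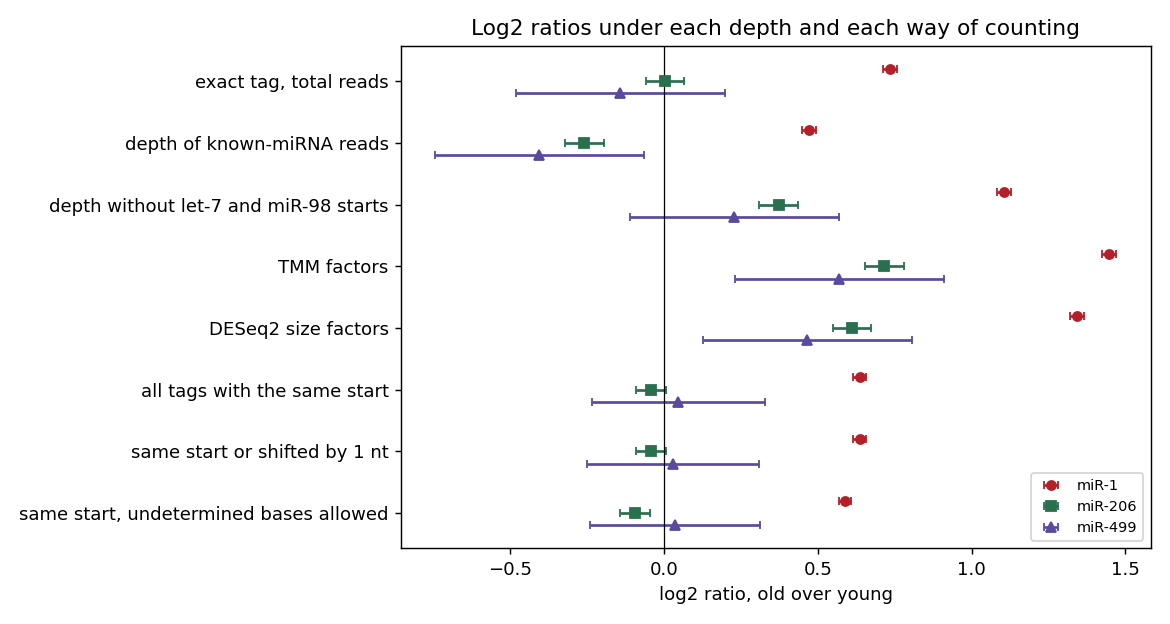
Log2 ratio, old over young (x axis), of miR-1 (red circles), miR-206 (green squares) and miR-499 (purple triangles) for each depth and each way of counting (y axis), with the 95% exact counting interval. miR-1 stayed between 0.47 and 1.45, above both other members in each row, while miR-206 and miR-499 lay on either side of 0.

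By log2 ratio of exact tags, miR-1 took place 13 of the 256 listed miRNAs from the highest, miR-206 place 47 and miR-499 place 67, and with the 24 others added they took places 13, 49 and 69 of 280. GC content moved with the ratio over the listed miRNAs. The median log2 ratio was 0.12 for the 4 miRNAs under 30% GC and -1.40 for the 53 with at least 55%, of which 0 were higher in the old library. miR-1, at 27.3% GC, was the highest of the 4 in its class, of which the others were miR-340-5p (0.22), miR-369-3p (0.03) and miR-384-3p (0.03). miR-206, at 45.5%, was in place 10 of the 60 miRNAs from 45% to under 50%, whose median was -0.55. miR-499, at 33.3%, was the middle of the 19 from 30% to under 35%. The part of GC content in the ratios of the members was not tested.

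**Figure D3:**
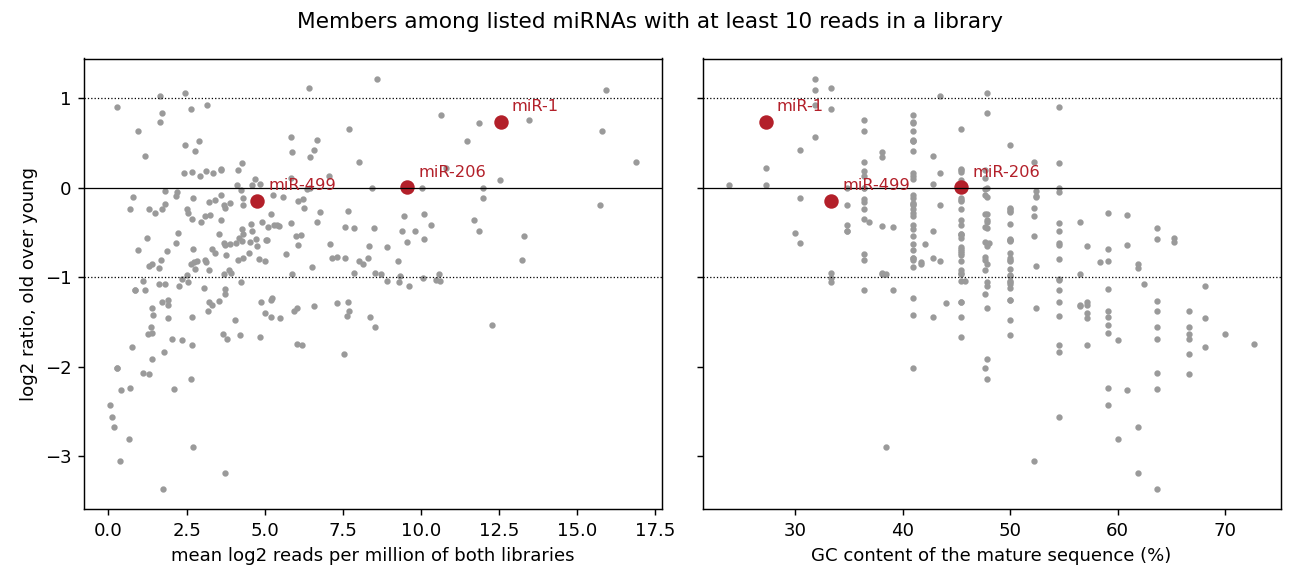
Log2 ratio, old over young (y axis), of the 256 listed miRNAs with at least 10 reads in a library (grey), against the mean log2 RPM of the libraries (left) and the GC content of the mature sequence (right). Dotted lines mark 2-fold. miR-1 (red, 0.73) lay at the low end of GC content and among the most abundant miRNAs, and miR-206 (0.00) and miR-499 (-0.14) above the median of -0.62.

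Other miRNAs of striated muscle and of other cell types were read in the same libraries. In the list of other striated muscle miRNAs, miR-208a and miR-208b, which mark heart and slow muscle, had 0 exact reads in either library, and only 1 read, in the old library, shared a start with miR-208b. miR-486a-5p, of muscle and also of red blood cells, had 434 young and 335 old reads (log2 ratio -0.93). The red cell miRNAs miR-451a (298 and 262 reads, -0.74) and miR-144-3p (25 and 26 reads, -0.50) had lower levels in the old library, the second within counting error. miR-143-3p of smooth muscle had 10197 and 7502 reads (2254 and 1127 RPM), miR-126a-3p of endothelium 27 and 45 (0.18, -0.54 to 0.92) and miR-122-5p of liver 309 and 259 (-0.81). miR-145 could not be matched to a tag. Of the brain miRNAs, miR-9-5p had 6673 and 7361 exact reads, a lower level in the old library (log2 ratio -0.42, -0.46 to -0.37). For miR-124-3p there were 1795 and 842 exact reads (-1.65, -1.77 to -1.53) and 178300 and 113206 reads by shared start. The part of other tissue in the miR-1 and miR-206 reads was not tested, and in whole brain fewer cells of a type and less RNA per cell cannot be told apart.

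Positions on the mm9 assembly (NCBIM37) were found by exact match of the tags to the genome. miR-206 lay at chr1:20669136-20669157 in Mir206, and miR-133b began 3779 nt further on in Mir133b at chr1:20672915-20672936. miR-499 lay at chr2:155448629-155448649 in Mir499, within an intron of Myh7b on the same strand. miR-1 matched at chr2:180123801-180123822 in Mir1a-1, with miR-133a 9341 nt further on at chr2:180133142-180133163 in Mir133a-2, both on the plus strand. miR-1 and miR-133a each had another perfect match on chromosome 18, in an intron of Mib1 on the opposite strand to that gene, 2572 nt apart. The first 2 bases after miR-1 were the same at each of its loci, and 0 tags ran further, so the reads of miR-1 could not be divided between the loci.

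The strand partners, the opposite arms of the hairpins, had few or no reads, and those of miR-1, miR-206 and miR-499 were nearly unread beside the member. The partner of miR-1 from its chromosome 2 hairpin, miR-1a-1-5p, had 0 exact reads in the young and 1 in the old library. By shared start it had 1 young and 1 old read, against 92549 reads of miR-1, which was 0.00216% of both arms. Over the 106 listed miRNAs, miR-206 among them, with both arms in the table and at least 1000 reads by shared start of the greater arm, the median share of the lesser arm was 0.479%, and 13 of them, 11 of those at 0, had a lower share than miR-1a-1-5p. No sense read was found over the 5p arm of the chromosome 18 locus alone. On the strand opposite to that hairpin, 2 young reads and 1 old read lay over the 5p arm, and 0 young and 2 old reads, which matched each of the loci, over the mature sequence.

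The partner of miR-206, miR-206-5p, had 0 reads against 13528 of miR-206, which allows a share of up to 0.0222%, and that of miR-499, miR-499-3p, had 0 against 446, which allows up to 0.673%. On the 5p arm of miR-133a, 6 young and 7 old reads began 37 or 38 nt before the mature start, where the listed and the 1-nt shifted start of miR-133a and miR-133b together had 21 and 12. miR-133b-5p itself had 0 reads, although 2 young reads and 0 old reads matched it with 1 base more at the 5′ end. At this depth the libraries could not be told apart in any partner.

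By the classes used here the members differed in their 3′ ends, miR-206 in added A and miR-499 in ends longer than listed. The tags that carried most miR-206 and miR-499 reads are shown as deposited, with T for U and the seed in capitals, because the added and missing bases stand at their right ends.
miR-206, listed mature sequence: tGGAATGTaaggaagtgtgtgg
miR-206, 1 base shorter: tGGAATGTaaggaagtgtgtg
miR-206, 2 bases shorter: tGGAATGTaaggaagtgtgt
miR-206, A added: tGGAATGTaaggaagtgtgtgga
miR-206, 1 genome base longer: tGGAATGTaaggaagtgtgtggt
miR-206, 2 A added: tGGAATGTaaggaagtgtgtggaa
miR-206, last base replaced by T: tGGAATGTaaggaagtgtgtgt
miR-206, last base replaced by A: tGGAATGTaaggaagtgtgtga
miR-499, listed mature sequence: tTAAGACTtgcagtgatgttt
miR-499, 1 genome base longer: tTAAGACTtgcagtgatgttta
The first miR-206 tag had 3425 young and 5054 old reads, the 2 shortened tags 586 and 312 young and 753 and 362 old, and the tag with 1 added A 238 and 338. The tag 1 genome base longer had 172 young and 311 old reads, that with 2 added A 189 and 243, that ending in T 149 and 236, and that ending in A 139 and 159. For miR-499 the listed tag had 129 and 172 reads and the longer one 34 and 72.

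For miR-1, the listed 3′ end held 74.7% (74.2% to 75.2%) of the reads with its start in the young library and 80.0% (79.7% to 80.3%) in the old. Shortened ends held 17.9% in the young and 13.4% in the old library, most of them 2 bases shorter (3211 and 5357 reads). Ends with added A held 2.70% and 2.73%, and ends with added U 0.199% and 0.196%. Ends with other bases held 3.65% and 3.04%. Most added A reads, 625 of 760 young and 1358 of 1755 old, had the listed length, with the last base replaced by A. For these a substituted last base cannot be told apart from a lost base followed by an added one. The intervals of the listed and of the shortened ends did not overlap between the libraries, and those of added A and added U did. Among the 169 listed miRNAs with at least 100 reads by shared start in each library, the share of the listed end was higher in the old library in 41.4%, and its median was 37.3% in the young and 35.9% in the old.

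For miR-206, the listed end held 61.5% (60.2% to 62.8%) in the young and 63.5% (62.4% to 64.6%) in the old library, and shortened ends 17.1% and 14.7%. Added A stood on 11.4% (10.6% to 12.3%) of young and 10.6% (9.92% to 11.3%) of old reads and added U on 2.80% and 3.15%. Both additions were more frequent on miR-206 than on miR-1 in each library, while the medians of the 169 miRNAs were 7.05% and 7.33% for added A and 4.03% and 4.22% for added U. An added base that equals the genome base is counted as an extension, so the classes depend on each sequence. Tags of the listed length with the last base replaced are counted as additions. They held 149 of 156 young and 236 of 251 old added U reads of miR-206, and 139 of 636 and 159 of 843 added A reads. miR-1 ends in U, so a lost last base followed by an added U gives its listed sequence and is not counted as an addition. The added U shares of miR-1 and miR-206 are therefore not like measures, and no difference is read from them. Ends 1 or more genome bases longer held 3.52% of young and 4.28% of old miR-206 reads.

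miR-499 was the member most often longer than listed. Ends that went on with genome bases held 19.2% (13.7% to 25.8%) of its young and 26.8% (21.6% to 32.5%) of its old reads, where miR-1 had 0.515% and 0.652%. Over the 169 listed miRNAs this class had a median of 3.05% young and 2.83% old and an upper quartile of 19.1% and 19.8%. The listed end held 72.9% (65.7% to 79.3%) of young and 63.9% (57.9% to 69.7%) of old miR-499 reads. The intervals overlapped between the libraries for either class. Its shortened ends were few, 3.39% and 3.35%. All of its genome-extended reads, 34 young and 72 old, were the tag 1 genome base longer, which ends in A. As that A is the genome base, an A added to the listed end cannot be told apart from an extension.

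**Figure D4:**
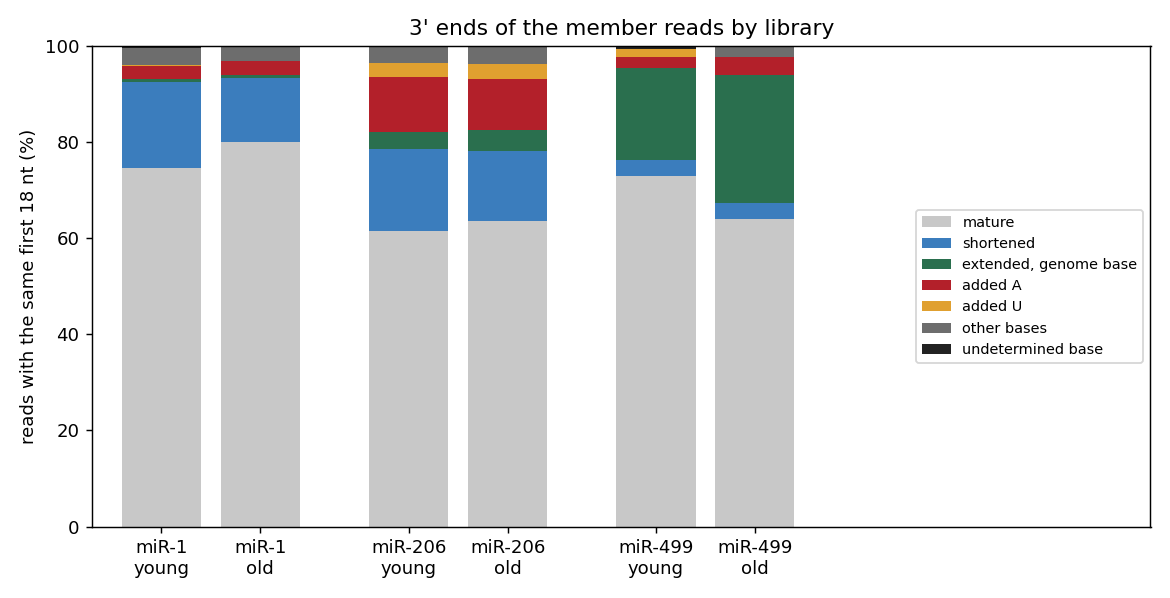
Share (%) of the reads with the first 18 nt of miR-1, miR-206 and miR-499 in each class of 3′ end, 1 stacked bar per library. The listed end (light grey) held 61.5% to 80.0% of the reads, shortened ends (blue) were most frequent for miR-1 and miR-206, added A (red) for miR-206 and genome-extended ends (green) for miR-499. The extended miR-499 end carries an A that is also the genome base.

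At the 5′ end, 36 young and 54 old reads of miR-206 were 1 nt longer, and the extra base was the genome's A in 36 and 50 of them. miR-1 had 13 young and 22 old reads of that kind, of which 11 and 16 began with C, which is not the genome base, and 1 and 3 with the genome's A.

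Reads of listed length with 1 substituted base were found for miR-1, miR-206 and miR-499. They numbered 3216 young and 7995 old for miR-1 and 542 and 823 for miR-206, which was 13.3% and 13.4% of the summed exact and substituted reads of miR-1 and 13.7% and 14.0% of those of miR-206. miR-499 had 11 and 31, few reads, which was 7.86% and 15.3% of its summed reads. The last base, position 22 counted from 1 at the 5′ end, held the most, at 6.17 young and 4.86 old reads per 100 exact reads of miR-1 and 8.44 and 7.91 of miR-206. For miR-206 these were mainly G22T (149 and 236 reads) and G22A (139 and 159), where the listed base stands first. They are the tags listed above as ending in T and in A, and a substituted last base cannot be told apart from a lost base followed by an added one. The miR-1 reads with A at position 22 (625 and 1358) are likewise among those counted above as added A. Those with C at position 22 (658 and 1118) are among the ends with other bases.

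Within the sequence, position 8 lay above the median of other miRNAs in both miR-1 and miR-206. As the last base of the seed, it had 1.26 young and 2.73 old reads per 100 exact reads for miR-1 and 0.730 and 1.92 for miR-206, above the medians of 0.186 and 0.226 over 51 other listed miRNAs with at least 1000 reads in each library. Position 8 was higher in the old library in 40 of those 51 as well. In the young library miR-206 had more at positions 2 and 18 (1.05 and 1.02) than at position 8. At position 8 of miR-206, T8G was the most frequent, with 17 young and 71 old reads. Position 16 (0.566 and 0.924 for miR-1, 0.642 and 0.910 for miR-206) and position 13 (0.633 and 1.01, 0.555 and 0.693) were also above the medians, which were 0.260 and 0.284 at position 16 and 0.291 and 0.362 at position 13. Position 2 was near the other miRNAs: it had 1.08 and 0.157 for miR-1 and 1.05 and 0.158 for miR-206, and was higher in the young library in 50 of the 51 other miRNAs as well (medians 1.02 and 0.210). At positions 4, 14 and 18 the members differed. Position 4 had 0.885 and 0.843 for miR-1 and 0.146 and 0.0791 for miR-206. Position 14 had 0.804 and 1.25 for miR-1, above the medians of 0.346 and 0.579, and 0.321 and 0.455 for miR-206, below them. Position 18 had 0.181 and 0.216 for miR-1 and 1.02 and 1.33 for miR-206. In the seed as a whole, miR-1 had 764 young and 2232 old substituted reads and miR-206 73 and 122. Whether these bases were in the RNA or arose in sequencing was not tested.

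**Figure D5:**
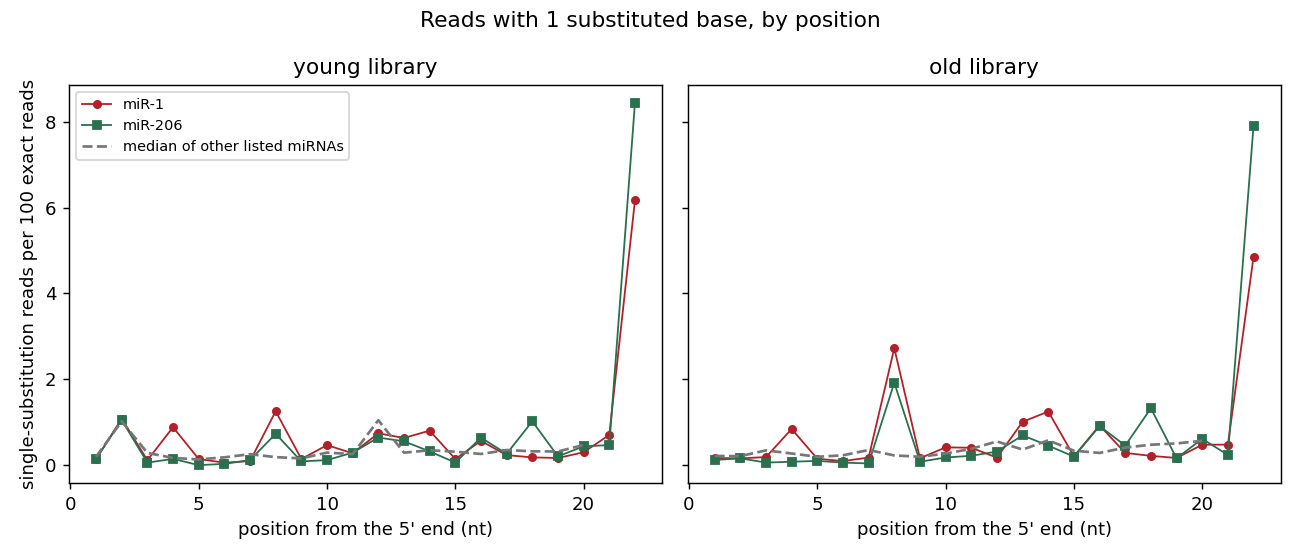
Reads with 1 substituted base per 100 exact reads (y axis) by position from the 5′ end (x axis) for miR-1 (red circles) and miR-206 (green squares) in the young (left) and old (right) library, with the median of 51 other listed miRNAs (dashed, positions 1 to 20). Both lines peak at position 22, at 8.44 for miR-206 in the young library, and lie above the dashed line at position 8, at 2.73 for miR-1 in the old.

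miR-1 and miR-206 share their first 10 bases and differ at 4 positions in all, so a misread could move reads between them. Tags with the miR-206 base at 1 of the 4 positions and the miR-1 base at the others had 121 young and 324 old reads, those with 2 had 4 and 7, and those with 3 had 156 and 247. Most of the reads with 3, 149 young and 236 old, were the miR-206 tag ending in T shown above. A lost base followed by an added one would also give that tag, so these reads do not measure misreading. The exact reads of miR-206, with all 4, were 3425 and 5054, so mixed tags were few beside either member.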

How the data were processed

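Small RNAs of 18 to 30 nt from brain of young and old mice were sequenced in 1 library per age. The authors removed the 3′ adapter with up to 3 mismatches, aligned the 36-nt reads to mm9 with SOAP (version not given in the sources used here) and deposited a raw read count per distinct sequence, without normalization. Adapter trimming sets the 3′ ends, and only reads placed on the genome were analysed, so added bases were seen as far as that alignment let them through.

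A tag equal to the mature sequence was counted as exact, and tags with the same first 18 nt as sharing its start. Tags of the mature start were classed by their 3′ end against the genome, and tags with a start shifted by 1 nt were counted apart. For miR-133, tags of both starts were matched to the genome as miR-133a, miR-133b, either or neither. Levels are reads per 1000000 reads of the library (RPM). In ratios, 0.5 stood in for 0 reads. Intervals are exact (Clopper-Pearson or Poisson) at 95%, and where 0 reads were found the limit is 3 reads of the total. Known mature sequences came from RefSeq (1674 distinct sequences, GRCm38.p6), with identical sequences counted once and the members miR-1 and miR-133a added. Markers it does not list were matched through the study's tabulated counts but are outside this set, and a set extended by 24 such miRNAs was tried after seeing the data. Precursors came from an annotation of NCBIM37. Count models were not fitted, because no age had a second library from which to estimate spread. Scaling factors came from edgeR 4.0.16 (TMM) and DESeq2 1.42.0 in R 4.3.3, and the other work used Python 3.11.15 with scipy 1.17.1. Ratios, intervals and end classes were tested on simulated data.

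The members and lists were chosen with earlier results of these data known. The miRNAs named are the members, their partner strands, their neighbours in rank, and the markers of brain, other striated muscle, blood, smooth muscle, endothelium and liver. The miRNAs under 30% GC, miR-17-3p as a tie, miR-6349 and miR-6382 were named after their values were seen. Alternatives were other depths, other rules of counting, other read minimums and a start of 16 nt.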

Additional observations from a re-analysis of the deposited data

How the results depend on the processing

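No paired analysis was possible because each age has 1 library. With 1 library per age, animals, library and age cannot be told apart. Low counts limit miR-133a, miR-133b, miR-499 and all partner strands. Of 65 recomputed values, 23 stayed within counting error (counts within 1.5 times) of the value reported, 42 moved and 0 were called reversed. A reversal could be called only for the log2 ratio of miR-1, because it alone had an interval away from equal levels. The miR-206 ratio could not be called reversed. It went from -0.26 (-0.32 to -0.20) with known-miRNA reads to 0.72 (0.65 to 0.78) with TMM factors.

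With the depth of known-miRNA reads, the log2 ratio was 0.47 for miR-1 and -0.26 for miR-206, and 0 miRNAs were at least 2-fold higher and 115 lower. Without let-7 and miR-98 starts the log2 ratios were 1.10 for miR-1, 0.37 for miR-206 and 0.23 for miR-499, with 17 miRNAs at least 2-fold higher and 46 lower. TMM factors gave 1.45, 0.72 and 0.57, with 27 higher and 23 lower. DESeq2 size factors gave 1.34, 0.61 and 0.47, with 25 higher and 31 lower. All these shift each miRNA by the same amount. Tags of the same start gave miR-1 0.64, and with starts shifted by 1 nt 0.64 again, with 3 miRNAs at least 2-fold higher. With undetermined bases allowed, miR-1 stood at 0.59 and miR-206 at -0.093 (-0.14 to -0.04), an interval that left out equal levels. The miR-133 reads were 15 by shared start and 33 with shifted starts, against 5 exact. Without a minimum of reads 33 miRNAs were at least 2-fold higher and 221 lower, and with at least 50 reads 42 were lower. With a start of 16 nt the exact share was 79.5% for miR-1 in the old library and 60.1% young and 61.0% old for miR-206. By shared start the ranks among the listed miRNAs in the young library became 14 for miR-1, 46 for miR-206 and 169 for miR-499, and in the old 9, 39 and 141. With the set extended by 24 miRNAs, chosen after seeing the data, the exact ranks were 12, 42 and 135 in the young library and 7, 32 and 121 in the old, and by shared start 19, 56 and 191 in the young and 10, 47 and 161 in the old. The cause of these moves beyond the change in what was counted was not tested.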
